A study of Mus musculus with 15 samples.

Results

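Exc_21 is a cluster of excitatory neurons of the mouse prefrontal cortex (PFC). Its members are the cells that the deposited cell annotation places in the finest-level cluster Exc_21, in all libraries, and they number 1142 of the 35360 annotated cells and of the 20377 cells in the 26 excitatory (Exc) clusters. The cells came from single-cell RNA-seq on the 10X Chromium platform, which tags each captured mRNA with a unique molecular identifier (UMI). All mice were male C57BL/6N with no transgene. The mice of the libraries called P60 (8 to 10 weeks of age per the labels) had self-administered cocaine or saline intravenously. These were 12 libraries, 2 for each of 6 groups, with saline or cocaine at the end of the maintenance phase, at 48 h of withdrawal and at 15 d of withdrawal. The paper places catheter implantation at P60, so tissue was taken after that age, and later at 15 d of withdrawal than at maintenance. The 3 libraries of P21 mice (3 weeks of age) came from animals with no self-administration. The methods give pooled tissue of 2 mice for each replicate, so the library was taken as the replicate. The methods give too few P21 mice for 3 separate pools of 2. How these mice map to the 3 P21 libraries is not given in the sources used here. The P21 libraries may therefore share animals, and their p-values then measure a spread that is partly technical. The source label names PFC for every library, whereas a tissue field of the labels reads NAc. The 12 P60 libraries held 776 members and the 3 P21 libraries held 366.

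Near-projecting neurons are a class of glutamatergic neurons in the deep layers of the neocortex whose axons stay mostly local, in contrast to the pyramidal tract neurons of layer 5 and the corticothalamic neurons of layer 6 that lie beside them. In the cortex they are recognised by the zinc finger homeobox factor Tshz2 together with the secreted neurexin ligand Nxph1, the adaptor Sla2 and the receptor of thyrotropin-releasing hormone. Adolescence, between weaning at P21 and adulthood at P60, is a period of synaptic and transcriptional maturation of the PFC, and cocaine self-administration followed by withdrawal is a model of drug taking and abstinence.

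The number of members per library was 10 at the lowest, 55 at the median and 147 at the highest of the 12 P60 libraries, and 133, 112 and 121 in the 3 P21 libraries. Their summed UMIs ranged from 92244 to 1181880 per P60 library and from 659255 to 1068230 per P21 library. The library with 10 members was saline maintenance replicate 1, and its values carry the largest counting error. A member cell had fewer UMIs than the other excitatory neurons of its library in 15 of 15 libraries. The median per P60 library lay between 7160 and 9790 UMIs in Exc_21 and between 12454 and 17093 UMIs in the other Exc cells. The share of UMIs from mitochondrial genes was also lower, with library medians of 1.58 to 1.89% in Exc_21 and 2.19 to 2.61% in the other Exc cells at P60. At P21 this share was higher than in every P60 library, at 2.62, 3.19 and 3.23% in Exc_21 and 3.10, 3.71 and 3.63% in the other Exc cells. Of the 366 P21 members, 12 carried a non-excitatory class in the same annotation (4 microglia, 4 newly formed oligodendrocytes, 2 endothelial cells, 1 oligodendrocyte and 1 astrocyte), and 3 to 5 of them were in each P21 library. They were kept, as the cluster is defined by the cluster column, and the age comparison is also given without them. Only 2 pairs of member cells in different libraries shared a barcode. The 2 cocaine libraries at 15 d, saline 15 d replicate 2 and the 3 P21 libraries stood apart from the other 9 libraries in a common set of genes in every cell type examined, as described with the 15 d comparison.

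At P60, the genes with the largest ratio of Exc_21 to the other excitatory clusters included Tshz2 and several genes that were near 0 in all of those clusters. Expression is given in CPM, the UMIs of a gene in a library's cluster cells per 1000000 UMIs of those cells. Tshz2 lies on the plus strand of chromosome 2 (mm9, chr2:169458671-169897316), Nxph1 on the plus strand at chr6:8898431-9199032, Sla2 on the minus strand at chr2:156698193-156712928 and Trh on the minus strand at chr6:92192055-92194644, and all are annotated as protein-coding genes. Tshz2 was at 1864, 2058 and 2451 CPM (lowest, median and highest of 12 libraries), with a mean of 2099 ± 186 (SD). The highest mean of any other Exc cluster was 96.7, in Exc_11, so that the levels did not overlap. These and the following differences from other clusters are descriptions with no test, since the clusters were made from the same genes. Exc_21 had the highest mean of the 26 clusters for 1033 of 7776 genes (13.3%) and the lowest for 952 (12.2%). Among 5860 genes at 20 CPM or more in Exc_21, 71 were at least 2-fold and 20 at least 5-fold above the highest other cluster.

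The genes with the largest ratio to the next cluster fell into several roles. Among secreted proteins and their receptors, Trh, the precursor of thyrotropin-releasing hormone, was at 47.8, 97.6 and 248 CPM (lowest, median and highest), against 3.38 in Exc_19, the next cluster. Trhr, the receptor of that hormone, was at 51.4, 79.3 and 102, against 11 in Exc_7. The cluster thus held mRNA of both the peptide precursor and its receptor, and the lowest library was above every other cluster's mean for each. Nxph1 was at 154, 199 and 368, against 5.93 in Exc_8. Vwc2l, a secreted protein with a von Willebrand C domain, was at 34.3, 66.9 and 100, against 5.93 in Exc_4. Il11ra1, which binds interleukin 11, was at 648, 737 and 838, and its next cluster, Exc_18, had a mean of 78.6.

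Among intracellular proteins, Sla2, a Src-like adaptor, was at 86.2, 109 and 141 CPM, against 1.2 in Exc_19. Myzap, a component of cell junctions, was at 5.86, 30.7 and 56.6, against 0.263 in Exc_19. Its ratio was the largest of all, 109-fold with no CPM added to the means, and it rests on that level near 0. Lcp1, an actin-bundling protein, was at 17.4, 24.3 and 47.5, with a ratio of 32.2. These 3 genes were at or near 0 in the nearest clusters. Kcnip1, which modulates voltage-gated potassium channels, was at 34.8, 61 and 85.3 with a ratio of 24.5, and Stard5, a sterol-binding protein, was at 33, 58.4 and 113 with a ratio of 21.5. The same rule also named 5830416P10Rik (ratio 31.6), AW551984 (20.1), Slc15a5 of the peptide transporter family (13.6) and the metalloproteinase gene Mmp11 (8.81). Mmp11 had an isolated value of 95 in saline maintenance replicate 1, the library with 10 members, and lay between 17.4 and 41.04 in the other P60 libraries.

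**Figure D1:**
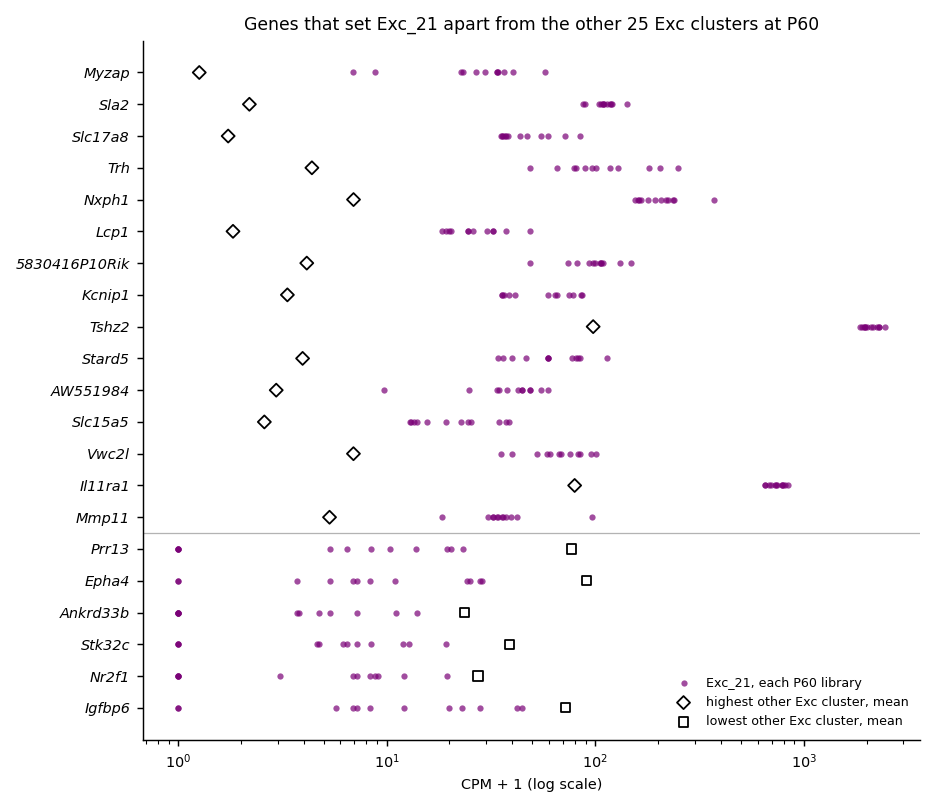
CPM plus 1 (log axis) in Exc_21, with a dot for each of the 12 P60 libraries, for the 15 genes with the largest ratio to the highest other Exc cluster (diamonds, its mean) and the 6 genes with the smallest ratio to the lowest other Exc cluster (squares, its mean). For the upper 15 genes, all dots lie to the right of the diamond, whereas for the lower 6 genes all dots lie to the left of the square, including libraries at 0 (drawn at 1).

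The vesicular glutamate transporters, which load glutamate into synaptic vesicles, were all detected, in proportions that set Exc_21 apart from the other clusters. Slc17a7 (VGLUT1), the transporter of most cortical projection neurons, was at 178, 235 and 306 CPM, and its mean of 236 ± 43.8 was the lowest of the 26 clusters (next lowest 268, in Exc_11). Slc17a6 (VGLUT2) was at 86.7, 113 and 148, against at most 33.1 in another cluster (Exc_10). Slc17a8 (VGLUT3) was at 34.3, 39.8 and 83.1, against at most 0.737 (Exc_15). Exc_21 therefore ranked last for the first transporter and first for the other two. Per cell, with each cell thinned to 2000 UMIs, Slc17a6 was detected in 20.4% of the 776 P60 members and in 1.21% of 13667 other Exc cells, with 0.467% in astrocytes as a background (unthinned 51.0% and 6.07% at unequal depths). Slc17a8 was detected in 7.22% of thinned members and in 0.0366% of other Exc cells, with 0.0668% in astrocytes. Slc17a7 was detected in 39.7% and 53.3%, with 7.54% in astrocytes. Without thinning, 33.5% of members had UMIs of both Slc17a7 and Slc17a6 and none of Slc17a8, 29.5% had Slc17a7 alone, 7.09% had Slc17a6 alone, 8.89% had all of them and 7.60% had none. After thinning to 2000 UMIs, both Slc17a7 and Slc17a6 were seen in 7.47% of members and none of the transporters in 43.3%, so the share of cells counted as expressing more than a single transporter depended on depth.

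Tshz2 itself was detected in 96.8% of thinned members (99.5% unthinned), in 2.34% of other Exc cells, in 3.36% of Exc_19 cells and in 2.87% of astrocytes. It was not restricted to these neurons in the tissue, since 46.5% of 3557 endothelial cells also had a UMI. The neurexophilin Nxph1 was found in 30.5% of thinned members, 0.329% of other Exc cells and 31.2% of inhibitory neurons. Sla2 was found in 17.3% of members and 0.102% of other Exc cells. For these genes, the share in other Exc cells was at or below a few percent, the level seen in astrocytes for Tshz2.

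Exc_21 expressed transcription factors of deep-layer neurons. Of 29 listed layer and identity factors at 20 CPM or more in an Exc cluster, Exc_21 was the highest cluster for 5 and the lowest for 2. Over all genes it was highest for 13.3% and lowest for 12.2%. Etv1, an ETS factor of layer 5, was at 605, 710 and 767 CPM, against a highest other mean of 286 in Exc_25 and 40.2 in Exc_19. Fezf2, a zinc finger factor that specifies subcerebral projection neurons, was at 148, 223 and 382, close to the 222 of Exc_26. Bcl11b, a partner of Fezf2 in these neurons, had rank 2 at 143, 174 and 236, after 274 in Exc_26. Tle4, a corepressor of layer 6 neurons, had rank 2, and Foxp2, a factor of corticothalamic neurons, had rank 4 at 21.9, 35.3 and 46.9, far below the 172 of Exc_20. Lmo3 (166, 227 and 277) and the Tshz2 relative Tshz3 (56.3, 72.2 and 110) were highest in Exc_21, Tshz3 by a small margin over the 71.3 of Exc_10. At the other end, Nr2f1, an orphan nuclear receptor, Id2, an inhibitor of basic helix-loop-helix factors, and the LIM-only gene Lmo4 had low levels. Nr2f1 was at 0, 6.03 and 18.5, against a lowest other mean of 26.4.

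Exc_21 had higher summed levels than the other Exc cells for 3 lists of deep-layer neurons, and of these lists it was the highest cluster for most members only of that of near-projecting neurons. Its summed level was 4135 to 5024 CPM in Exc_21 and 400 to 586 in the other Exc cells over the P60 libraries, and Exc_21 was highest for 9 of its 10 members at 20 CPM or more. The other, Crym, a thyroid hormone-binding protein, had rank 6 at 487, 513 and 737. All 7 genes that the study plots for this cluster were highest in it, which is not independent, as they were chosen on these cells. The near-projecting list was chosen with earlier results of these data known, so its count is not independent either. Exc_21 was the highest cluster for 0 of 6 layer 2/3 markers, 1 of 5 pyramidal tract markers (Fezf2) and 0 of 5 corticothalamic markers. Over all genes it was highest for 13.3% and lowest for 12.2%. Exc_21 was the lowest cluster for 2 of the 5 pyramidal tract markers, among them the calcium channel gene Cacna1h (0 to 4.16). The summed level of the pyramidal tract list, nearly all from Fezf2 and Bcl11b, was 321 to 592 in Exc_21 and 45.8 to 95.2 in the other Exc cells, and that of the corticothalamic list, mostly from Rprm and Tle4, was 700 to 934 against 148 to 386, both without overlap. Rprm, a marker of corticothalamic neurons, was at 458 to 698, against 2212 in Exc_19. As for the label of an excitatory cluster, the vesicular glutamate transporters were present, but the summed level of the list of cortical glutamatergic neurons ranged from 1393 to 2157 against 2103 to 3550 in the other Exc cells, and Exc_21 was the lowest cluster for 3 of its 8 genes (Slc17a7, Camk2a and Nrgn) and the highest for 1 (Slc17a6). The inhibitory markers had a summed level of 0 to 71.3, with Gad1 at 0 to 6.05 and Gad2 at 0 to 4.16. The astrocyte list was higher in Exc_21 (562 to 843) than in the other Exc cells (245 to 424), and nearly all of it was the glutamate transporter Slc1a2, at 558 to 843, which neurons also express. Aqp4, a water channel of astrocytes, was at 0 to 3.65 and Gfap, their intermediate filament, at 0 to 1.29. Exc_21 was the highest cluster for 2 of 4 oligodendrocyte markers at 20 CPM or more, while the summed level of that list was 61.0 to 269.7 in Exc_21 and 69.7 to 189 in the other Exc cells. Among these was Cnp, an enzyme of myelin, at 18.8, 33.8 and 71.2 against 22.6 in the next cluster. Exc_21 was also highest for the 1 endothelial and mural marker at that level, Rgs5 of pericytes, at 5.86, 18.5 and 94.96 against 17.5. The highest Rgs5 value was in the library with 10 members, and the median was close to the next cluster.

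Several genes of excitatory synapses and of calcium signalling were at their lowest in Exc_21. Camk2a, the alpha subunit of calcium/calmodulin-dependent kinase II, was at 79.8, 97.4 and 131 CPM, with 255 in the next lowest cluster, Exc_14. Nrgn, the calmodulin-binding protein neurogranin, was at 222, 344 and 813 (next lowest 607, in Exc_4), and Cck, the precursor of cholecystokinin, was at 0, 17 and 333 (next lowest 102, in Exc_19). Both were low in most libraries, and the high values of Nrgn and Cck came from the 2 cocaine libraries at 15 d. Among the 25 listed genes of mature neurons, Exc_21 was lowest for 7 and highest for 1, against 12.2% and 13.3% of all genes. Nefl, the neurofilament light chain, was at 36.5, 79.4 and 131 against a lowest other mean of 246. Epha4, an ephrin receptor, was at 0, 6.77 and 27.5 against 89.5, and Prr13 was at 0, 6.43 and 22.2 against 76.2. Other genes with small ratios were Ankrd33b (0.158 of the lowest other mean), the kinase Stk32c (0.16), Nr2f1 (0.211), Igfbp6 (0.22) and 3110035E14Rik (0.243).

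Synaptic organisers, receptors and channels differed gene by gene. Of 18 listed synaptic organisers, Exc_21 was highest for 5 and lowest for 1, and their summed level was lower in Exc_21 (2260 to 2908 CPM) than in the other Exc cells (2944 to 4030). Cbln2, a cerebellin that bridges neurexins and postsynaptic receptors, was at 83.1, 151 and 201 CPM (Exc_24, 80.9), Olfm3, a secreted olfactomedin, at 71.2, 121 and 176 (Exc_22, 48.2), Nxph3 at 129, 169 and 328 (Exc_19, 86.1) and the leucine-rich repeat protein Lrrtm1 at 111, 134 and 214. Among 6 monoamine and acetylcholine receptors, the serotonin receptor Htr2c (99.7, 140 and 198, with 40.3 in the next cluster) and the muscarinic receptor Chrm2 (23.7, 67.1 and 114, with 51.6) were highest, whereas the muscarinic receptor Chrm1 was lowest at 11.9, 49.9 and 57.4 (next lowest 71.2). Of the 19 glutamate receptor genes, Exc_21 was highest for 2 and lowest for 3. The kainate receptor subunit Grik1 (3.65, 16.7 and 26.1) had 2.51 in the next cluster, and the AMPA receptor subunits Gria1 (71.2, 110 and 141) and Gria3 (48.8, 82.2 and 110) were a little below the lowest other means of 118 and 101. Of 49 ion channel genes, it was highest for 6, among them the BK channel subunit Kcnmb4 (170, 209 and 240, with 119 in the next cluster) and the calcium channel subunit Cacnb4 (391, 474 and 598), and lowest for 9. Of 24 axon growth and cytoskeletal genes, it was highest for 6 and lowest for 2. Marcks, a substrate of protein kinase C that binds actin, was at 305, 364 and 492 with 188 in the next cluster, and the doublecortin-like kinase Dclk1 was at 504, 601 and 774. The shares of list members for which Exc_21 was highest are to be read against 13.3% of all genes, and those for which it was lowest against 12.2%.

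The cluster most like Exc_21 over 9776 genes was Exc_19, with a Pearson correlation of 0.92 across genes, followed by Exc_20 with 0.904. Genes are not independent replicates and the clusters share libraries, so the values only order the clusters. With the P21 libraries alone the order of these 2 clusters was exchanged, at 0.918 for Exc_20 and 0.917 for Exc_19. The genes named from the profile were all kept with the saline libraries alone, with the P21 libraries alone and with sums over all cells. For P21 this is not independent, as P21 cells had been given cluster names by their correlation with P60 clusters.

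Within Exc_21, Trh had the highest median rank over libraries for variation between cells. The excess of its squared coefficient of variation over counting noise was 3.73 at the median of 13 libraries with at least 30 members (range 1.418 to 7.001), while the median over 3258 genes was 0.0135. Trh was found in 30.5% of unthinned members and 14.2% of thinned ones, against 0.134% of thinned astrocytes. Spry2, an inhibitor of receptor tyrosine kinase signalling, came next with 1.91 (1.12 to 2.73), and Rab3b, a vesicle GTPase, had 1.26 (-0.778 to 2.93). Nefl had 1.32 (-0.322 to 2.14), and Slc17a8 had 1.082 with a wide range of 0.125 to 4.27. The ranges of Rab3b and Nefl cross 0, so not every library had an excess. With few UMIs per cell, the excess is uncertain for genes at low levels.

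The share of Exc_21 among excitatory neurons did not differ detectably with age or cocaine. It was 3.12% at the lowest, 5.08% at the median and 7.78% at the highest of the P60 libraries, and 5.36, 7.23 and 6.36% in the P21 libraries. The means were 6.32 ± 0.935% (SD, n = 3) at P21 and 5.09 ± 1.24% (n = 6) in the saline P60 libraries, with a two-sided exact permutation p of 0.202 (Benjamini-Hochberg adjusted over 8 such tests, 0.539). The cocaine libraries had a mean of 5.48 ± 1.39% (n = 6), with an exact permutation p of 0.722 within time points (adjusted 0.926). These are shares of the cells retained after dissociation and filtering. The median UMIs per member were 6715 ± 1396 at P21 and 8312 ± 919 in saline P60 libraries, with an exact permutation p of 0.0833 (adjusted 0.333). The ratio of that median to the median of the other Exc cells was 0.703 to 0.733 at P21 and 0.511 to 0.637 over the P60 libraries, which did not overlap. The exact permutation p of 0.0119 for that ratio against the saline libraries is the smallest that 84 regroupings can give, and it was 0.0952 after adjustment.

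Between P21 and saline P60, edgeR's quasi-likelihood test called 808 of 7152 genes (11.3%) in Exc_21, at an adjusted p under 0.05 and a change of more than 1.5-fold. Of these, 330 (4.61%) were higher and 478 (6.68%) lower at P60, and the median log2 change of all tested genes was -0.01. The libraries of the ages did not overlap for 566 of the 808 genes and for 1150 of all tested genes (16.1%). No library held both ages, so age and library preparation cannot be told apart. The saline P60 mice had also undergone food restriction, lever training, catheter surgery and saline self-administration, and these cannot be told apart from age either. The mitochondrial share of UMIs in Exc_21 moved with age, at 2.62 to 3.23% in the P21 and 1.59 to 1.87% in the saline libraries, and its part in the age differences was not tested. All changes below are log2 fold changes of P60 minus P21 with their standard error (SE), and a difference between ages in a cluster is relative to the total UMIs of that cluster. P21 cells had been given cluster names by their correlation with P60 clusters, so the levels of cluster-defining genes at P21 are not independent of that step.

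Of 11 near-projecting markers tested, 1 was called higher and 2 lower at P60, with a median log2 change of -0.15, against 11.3% of all genes called. Of the 7 genes that the study plots for this cluster, 2 were called lower. Tshz2, Sla2 and Nxph1 were not called. Tshz2 was at 2000, 2043 and 2109 CPM in the P21 libraries and at 1864, 1954 and 2303 (lowest, median and highest) in the 6 saline P60 libraries. Sla2 was at 124, 114 and 129 against 103, 108 and 119, and Nxph1 at 197, 185 and 174 against 154, 207 and 368. Lypd1, a Ly6 protein that acts on nicotinic receptors, fell from 839, 1025 and 1056 to 226, 510 and 719 (-0.79, SE 0.218, adjusted p = 0.0326), without overlap. Slc17a8 was lower at P60 (74.9, 96.4 and 62.8 against 34.3, 40.9 and 83.1, log2 change -0.83), with overlapping groups. Trh was higher, at 56.4, 52.1 and 67.8 in the P21 libraries and 64.3, 87.4 and 180 in the saline libraries (0.97, SE 0.265, adjusted p = 0.0188), also with overlap. Etv1 passed the adjusted p but not the fold (806, 946 and 982 against 605, 685 and 741, log2 change -0.38, adjusted p = 0.0178).

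Some synaptic organisers and layer factors were called lower at P60. Of 16 organisers tested, 3 were lower and 1 higher, with a median of 0.02, against 6.68% lower and 4.61% higher among all genes. Cbln2 fell from 233, 294 and 281 to 83.1, 134 and 188 (-0.87, SE 0.155, adjusted p = 0.000215), Olfm3 from 174, 205 and 200 to 71.2, 121 and 153 (-0.60, SE 0.152, adjusted p = 0.00654), and Nlgn3, a postsynaptic neuroligin, from 95.4, 128 and 126 to 43.5, 55.2 and 74.5 (-0.83, adjusted p = 0.00195). The ages did not overlap for any of these genes. C1ql3, a secreted synaptic C1q-like protein, was higher at P60 (1.01, adjusted p = 0.0296), with overlap. Of 22 layer and identity factors, 2 were lower and 1 higher (median -0.16), near the shares of all genes. Fezf2 fell from 516, 371 and 355 to 148, 219 and 280 (-0.91, SE 0.165, adjusted p = 0.000672). It is also among the 80 genes described with the 15 d comparison, whose level differed between libraries in every cell type examined, and its age change was not called relative to the other Exc cells (-0.02, adjusted p = 0.984). Tbr1, a factor of deep-layer glutamatergic neurons, fell from 60.5, 53.7 and 81 to 14.1, 34.6 and 43.4 (-0.83, adjusted p = 0.0101). Id2 was higher at P60 (0.85, adjusted p = 0.0178), with overlap.

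Against 4.61% of all genes called higher and 6.68% called lower at P60, few receptor and channel genes were called. None of 18 glutamate receptor genes was called (median -0.13), 1 of 37 ion channel genes was higher and none lower (median -0.11), and none of 7 monoamine and acetylcholine receptors was called. Of 12 GABA receptor subunits, Gabrd, the delta subunit of extrasynaptic receptors, rose from 16.4, 4.74 and 13.2 to 21.8, 27.4 and 35.6 (1.17, adjusted p = 0.0155), and Gabrg3 fell (-0.68, adjusted p = 0.0197), with overlap. Among 24 axon growth and cytoskeletal genes, 3 were lower and 1 higher (median -0.25). Marcksl1, a relative of Marcks, fell from 246, 186 and 188 to 62.5, 75.2 and 84.5 (-1.49, SE 0.163, adjusted p = 2.37e-07). Nnat, a small membrane protein of developing neurons, fell from 20.5, 42.7 and 41.3 to 0, 7.39 and 19.9 (-1.60, adjusted p = 0.0054), and Dpysl2, a collapsin response mediator, fell by 0.70 (adjusted p = 0.0435). Tubb2b, a beta tubulin, was higher at P60 by 0.63, with overlap. Lynx1, which restrains nicotinic receptors, was lower at P60 (130, 117 and 116 against 35 to 77, log2 change -0.96, adjusted p = 0.000468).

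**Figure D2:**
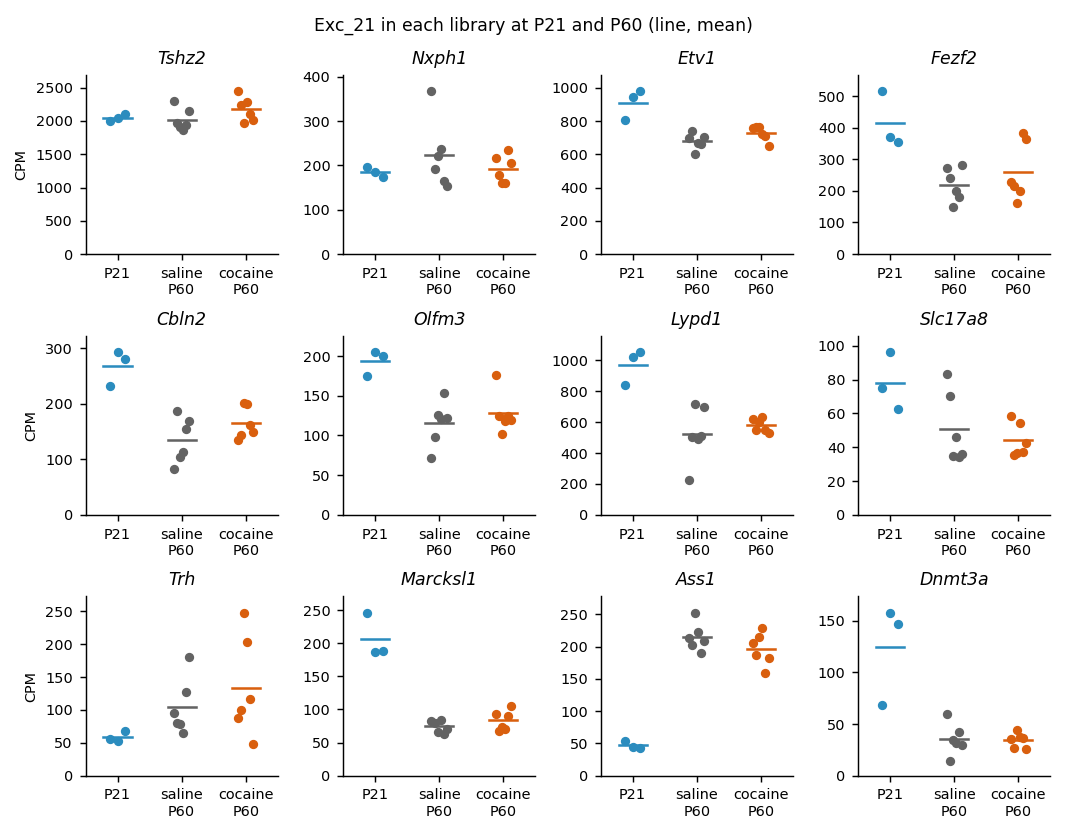
CPM in Exc_21 for 12 genes, with a dot per library of P21 (n = 3), saline P60 (n = 6) and cocaine P60 (n = 6) and a line at the group mean. Fezf2, Cbln2, Olfm3, Lypd1, Marcksl1 and Dnmt3a are lower and Ass1 is higher in all saline libraries than in all P21 libraries, whereas Tshz2 and Nxph1 overlap.

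Epigenetic regulators, a list taken from genes that the study displays for age and therefore not independent, had 3 genes higher and 4 lower of 12 tested (median -0.08). Their shares stand against 4.61% higher and 6.68% lower among all genes. Dnmt3a, a de novo DNA methyltransferase, fell from 68.7, 158 and 147 to 14.1, 33 and 59.4 (-1.80, SE 0.252, adjusted p = 3.36e-05), and Tet1, a methylcytosine dioxygenase, from 21.5, 49 and 39.7 to 0, 7.88 and 12.4 (-1.97, adjusted p = 0.000338). Both DNA methylation genes were lower in every saline P60 library than in every P21 library. Prmt1, an arginine methyltransferase, rose from 187, 94.8 and 94.2 to 237, 271 and 366 (1.15, adjusted p = 0.00139). Yeats4, a chromatin reader, fell from 137, 85.3 and 95.9 to between 0 and 47.2 (-1.93, adjusted p = 0.000188), and it also belongs to the 80 genes of the 15 d comparison (relative to the other Exc cells -0.38, adjusted p = 0.456). Of 15 immediate early genes, from a list of activity and dissociation response genes, 5 were lower and 1 higher (median -0.59). Among all genes 6.68% were lower and 4.61% higher. The summed level of the list in Exc_21 was 1002 to 1210 CPM at P21 and 249 to 1067 in the saline libraries. In the other Exc cells it was 1616 to 1742 at P21 and 785 to 1057 over the P60 libraries. The part of dissociation in these differences was not tested. Ier2 fell from 56.4, 26.9 and 23.1 to 0, 4.52 and 12.4 (-2.39, adjusted p = 0.00013), and Jun (-1.13), Nr4a1 (-1.08), Nr4a3 (-0.92) and Ier5 (-1.51) were also lower. Bdnf, the neurotrophin gene, went the other way, at 9.23, 4.74 and 6.61 against 4.35, 23.7 and 55.1 (1.96, adjusted p = 0.00338), with overlap.

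Of 18 glycolytic genes, 3 were called higher (Gpi1, Aldoc and Pkm2, median of the list 0.39) and none lower. Among all genes 4.61% were called higher and 6.68% lower. Of 77 genes of oxidative phosphorylation 3 were higher and 3 lower (median 0.13), a smaller share than the 11.3% of all genes called. Cox5a, a subunit of cytochrome c oxidase, fell from 1195, 453 and 347 to 84.5, 123 and 287 (-2.12). None of 12 heat shock genes was called. The gene with the strongest evidence of a rise was Ass1, argininosuccinate synthase of the citrulline and arginine cycle, which went from 53.3, 44.2 and 43 to 190, 211 and 253 (2.19, SE 0.171, adjusted p = 4.79e-11). The other rises of largest size without overlap were Gm4349 (3.42), the RNA-binding protein gene Rbmx (2.07), the galectin gene Lgals8 (2.01), the securin gene Pttg1 (1.60), Trmt11 (1.502), Cmbl (1.46), Slc15a5 (1.44), Taf9b (1.44) and Myl6b (1.42). Falls of large size without overlap were those of the tubulin cofactor gene Tbcc (-2.73), Mrps24 (-2.54), Sparc (-2.53), Ier2 (-2.39), 2310036O22Rik (-2.38), Tmem93 (-2.34), Tmem42 (-2.33), Mbp (-2.13) and Cox5a (-2.12). Of these, 2310036O22Rik is another of the 80 genes (relative to the other Exc cells -0.41, adjusted p = 0.301). The summed level of the 80 genes in astrocytes was 18316, 12253 and 10048 CPM in the P21 libraries and 4000 to 8921 in the saline libraries, and its part in the age differences was not tested.

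Markers of other cell types also differed between the ages. Of 3 oligodendrocyte markers tested, all were called lower at P60. Mbp, a myelin protein, was at 188, 463 and 132 in the P21 libraries and 20.2, 54.3 and 131 (lowest, median and highest) in the saline libraries. Without the 12 P21 members of a non-excitatory class, Mbp (-0.74) and Cnp (0.18) were not called. Sparc, a secreted glycoprotein of glia and vessels, was still called without them (-1.71), as was Sst, the somatostatin gene of inhibitory neurons (-1.80). In all, 750 of the 808 genes were also called without the 12 cells. The summed level of the oligodendrocyte list was 253 to 1002 in the P21 libraries and 61.0 to 249 in the saline libraries.

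The age change in Exc_21 was compared with that in the other excitatory neurons of the same libraries by an interaction test, in which a positive value means a larger rise or a smaller fall in Exc_21. It called 232 of 11875 genes (1.95%), 121 (1.02%) more positive and 111 (0.935%) more negative in Exc_21, and 1507 had an unadjusted p under 0.05. The difference between Exc_21 and the others did not overlap between the ages for 628 of the tested genes (5.29%) and for 118 of the called ones. The other neurons are a mixture of 25 clusters, so a difference can lie in their composition, and the same test was made against Exc_19 alone. Of the 808 genes called in Exc_21, 53 were also called in this test in the same direction, 33 of them lower and 20 higher. Of the 232 genes, 48 were also called in the same direction against Exc_19.

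Genes that fell in Exc_21 and had a more negative change there than in the other neurons had diverse roles, and those named here were chosen from the 53 after their values were seen. Crem, a cAMP-responsive transcription factor, fell from 96.4, 86.9 and 85.9 to 11.9, 46.1 and 82.7 in Exc_21 and was at 64.9 to 70 and 61.4 to 73.4 in the other neurons (interaction -0.995, SE 0.188, adjusted p = 2.77e-05), and it was also called against Exc_19 (-0.98). Dusp14, a phosphatase of MAP kinases, fell from 89.2, 103 and 101 to 44.7, 56.3 and 74.6 in Exc_21 and had means of 229 and 271 in the others (interaction -0.996, adjusted p = 1.52e-07). The linker histone gene Hist1h1c fell from 193, 130 and 112 to 23.2, 45.6 and 71.2 in Exc_21 (interaction -0.76, adjusted p = 0.0106). These 3 genes had no overlap of the ages in Exc_21 and were called against Exc_19. Doc2a, a calcium sensor of vesicle release (interaction -0.98), and Flywch2 (-1.14) showed the same in both tests. Nrsn1, a neuronal vesicle protein, fell from means of 1071 to 661 in Exc_21 with 435 and 476 in the others (interaction -0.97, adjusted p = 0.0172), Camk2n1, an inhibitor of calcium/calmodulin-dependent kinase II, from 825 to 450 with 1004 and 895 (interaction -0.62, adjusted p = 5.09e-10), and Fkbp1b, an immunophilin of ryanodine receptors, from 403 to 98.1 with 130 and 72.5 (interaction -1.30, adjusted p = 3.07e-19). These last 3 were not called against Exc_19. Hist1h1c and Fkbp1b are also among the 80 genes of the 15 d comparison.

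Fewer genes rose in Exc_21 and had a more positive change there than in the others. Ndn, the maternally imprinted gene of necdin, had means of 621 at P21 and 936 at P60 in Exc_21 and 417 and 385 in the others (interaction 0.60, SE 0.0858, adjusted p = 2.47e-09). Ndrg2 rose from 62.3 to 100 in Exc_21 with 21.6 and 16.7 in the others (interaction 0.90, adjusted p = 0.000313). Pttg1 had means of 49.5 and 155 in Exc_21 and of 85.4 and 152 in the others, with a larger change in Exc_21 (interaction 0.66, adjusted p = 0.00562; against Exc_19 0.76). Neither Ndn nor Ndrg2 was called against Exc_19, and the ages overlapped for both in Exc_21 (Ndn at 537 to 716 and then 702 to 1045, Ndrg2 at 43.0 to 90.2 and then 74.0 to 117). For Trh the interaction was 3.54 (adjusted p = 1.99e-20), with the other neurons at 1.66 to 4.09 at P21 and 0 to 0.545 in the saline libraries, so that it rests on levels near 0 in those neurons, and against Exc_19 it was 2.096 (adjusted p = 0.00214).

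**Figure D3:**
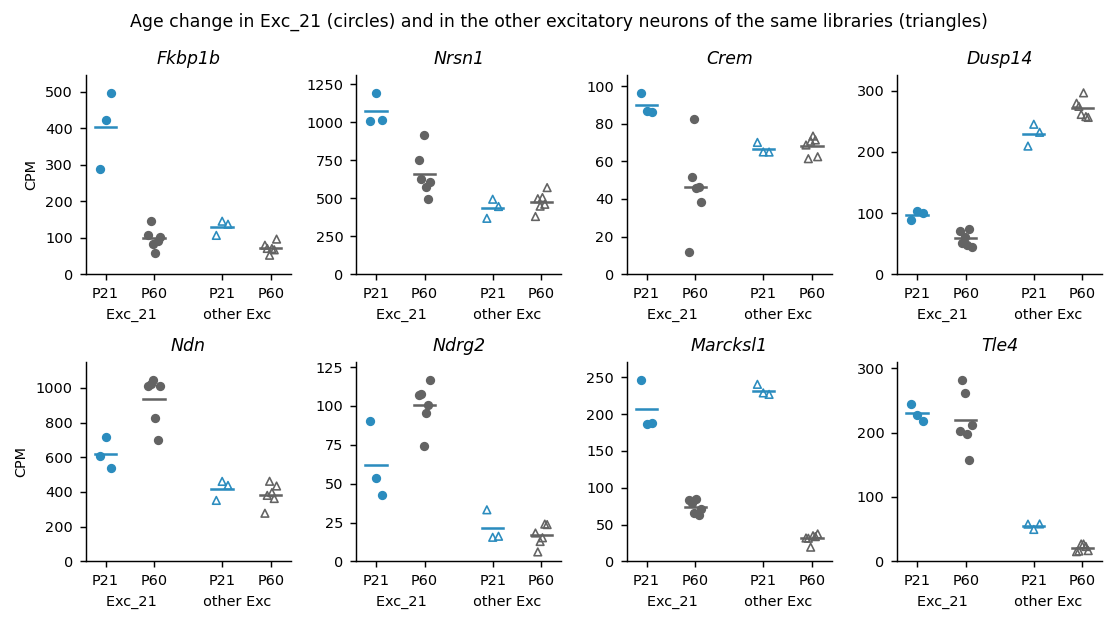
CPM at P21 (blue, n = 3) and saline P60 (grey, n = 6) in Exc_21 (circles) and the other excitatory neurons of the same libraries (triangles), with a dot per library and a line at the mean. Fkbp1b, Nrsn1, Crem and Dusp14 fell in Exc_21, with a smaller fall (Fkbp1b) or a slightly higher P60 mean (Nrsn1, Crem and Dusp14) in the other neurons, Ndn and Ndrg2 were higher at P60 in Exc_21, and Marcksl1 and Tle4 had a more negative change in the other neurons.

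Several layer and identity genes had a positive interaction with lower P60 levels in the other neurons and no called rise in Exc_21. Over all tested genes, 1.02% were called more positive and 0.935% more negative in Exc_21. Of the 6 corticothalamic markers, 5 were called more positive in Exc_21 (median 1.84, against -0.01 for all genes). Of 31 layer and identity factors 8 were more positive and 1 was more negative (median 0.22). Tle4 was at 244, 227 and 218 at P21 and 157, 207 and 281 in saline P60 libraries in Exc_21, with 49.6 to 58.1 and then 15.1 to 27 in the others (interaction 1.19, adjusted p = 8.08e-15). Rprm was at 501, 629 and 603 and then 475, 538 and 619 in Exc_21, with 455 to 633 and 167 to 331 in the others (interaction 1.17, adjusted p = 0.0429). Against Exc_19, Tle4 (0.30), Rprm (-0.04) and Foxp2 (0.55) were not called. Marcksl1, which fell in Exc_21, had a more negative change in the others (227 to 240 at P21, 19.3 to 37.3 at P60, interaction 1.26, adjusted p = 6.21e-13), and was also called against Exc_19 (1.64, adjusted p = 0.017). Lmo3 (0.91) and Nxph3 (1.69) were called against the other neurons. Against Exc_19, both passed an adjusted p of 0.05 (0.60, adjusted p = 0.00355, and 0.59, adjusted p = 0.0455). Of 20 immediate early genes, 5 were more positive in Exc_21, against 1.02% of all genes. They were Fos, Arc, Npas4, Btg2 and Bdnf (median of the list 0.41), each with overlapping libraries. Of these, Bdnf was also called higher at P60 in Exc_21, with means of 154 and 163 in the other neurons, whereas the other 4 had lower means at P60 in the other neurons. None of 22 glutamate receptor genes was called.

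Few genes were called between cocaine and saline in Exc_21 at 2 of the 3 time points. With 2 libraries per group, changes can have been missed. At maintenance, edgeR called 0 of 6631 genes (0.0%), with 340 at an unadjusted p under 0.05, and DESeq2 called 0. At 48 h of withdrawal it called 1 gene (0.0151%), with 345 at an unadjusted p under 0.05, and DESeq2 called 0. The gene was Chgb, chromogranin B of dense-core vesicles, which was at 919 and 1052 CPM in the saline libraries and 438 and 690 in the cocaine libraries at 48 h (log2 change -0.80, SE 0.157, adjusted p = 0.0303). The 4 libraries did not overlap, which was also the case for 2314 of the 6631 genes (34.9%). At the other time points Chgb was at 1080 and 943 in saline against 821 and 854 in cocaine (maintenance), and 736 and 556 against 686 and 701 (15 d). In the other Exc cells, Chgb at 48 h was at 614 and 618 in the saline and 464 and 508 in the cocaine libraries, and the difference between Exc_21 and these neurons was not called (-0.47, SE 0.123, adjusted p = 0.218).

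The peptide precursor Trh had the next lowest p-value at 48 h. It was at 78.4 and 64.3 CPM in the saline and 248 and 204 in the cocaine libraries (log2 change 1.67, SE 0.317, adjusted p = 0.0688), which missed the threshold. The cocaine libraries were the 2 highest of all 12 P60 libraries. At maintenance the values were 94.96 and 79.8 in saline and 87.9 and 100 in cocaine, and at 15 d they were 127 and 180 in saline and 117 and 47.8 in cocaine. The test of a difference between time points gave an adjusted p of 0.0596 for Trh, the lowest of 6631 genes, and called 0 genes (348 at an unadjusted p under 0.05), whereas DESeq2 called 1, Trh. C1ql3 was at 43.5 and 73.4 in saline and 161 and 133 in cocaine libraries at 48 h (1.16, SE 0.266, adjusted p = 0.103).

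**Figure D4:**
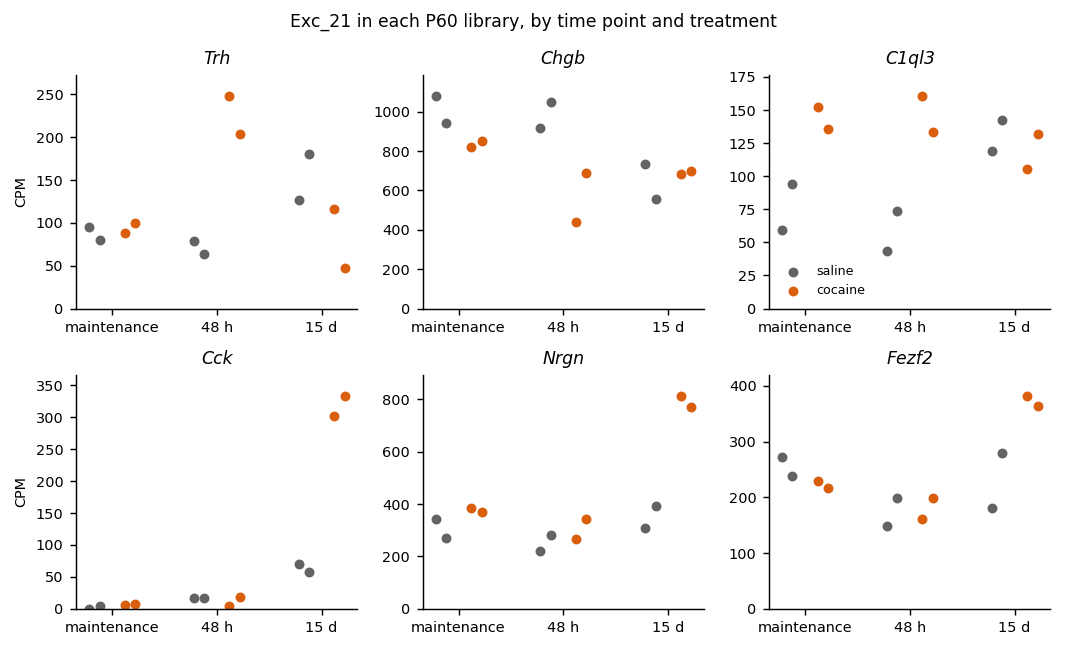
CPM in Exc_21 in each P60 library (grey, saline; orange, cocaine; 2 libraries per group) at maintenance and at 48 h and 15 d of withdrawal, for 6 genes. At 48 h, Trh and C1ql3 were higher and Chgb was lower in both cocaine than in both saline libraries, and Cck, Nrgn and Fezf2 were highest in both cocaine libraries at 15 d.

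At 15 d of withdrawal 83 of 6631 genes (1.25%) were called, 80 higher (1.21%) and 3 lower (0.0452%) with cocaine, whereas DESeq2 called 11. With a library left out, edgeR called 13 (without cocaine 15 d replicate 1) to 186 (without saline 15 d replicate 2). The 2 cocaine libraries did not overlap the 2 saline libraries for 83 of the 83 genes and for 2512 of all tested genes (37.9%). Cck was at 70.6 and 57.1 CPM in the saline and 302 and 333 in the cocaine libraries (log2 change 2.30, SE 0.185, adjusted p = 6.21e-15), and Nrgn at 311 and 393 against 813 and 772 (1.18, SE 0.142, adjusted p = 3.09e-08). The other P60 libraries had Cck at 0 to 18.7, so that the saline libraries at 15 d were also above them. Fezf2 was at 181 and 280 in saline and 382 and 364 in cocaine libraries (0.71, adjusted p = 0.00628), and Gabbr1, a subunit of the metabotropic GABA receptor, rose by 0.68 (adjusted p = 0.00466). Yeats4 was at 28.2 and 47.2 against 115 and 124 (1.68, adjusted p = 6.3e-06), and Mrps34, a protein of the mitochondrial ribosome, at 11.1 and 39.7 against 102 and 77.5 (1.90, adjusted p = 0.0143). The other rises of largest size were 2410004B18Rik, 2310036O22Rik, Fbxl15, Fbxo2, Sdf2l1, Rab40b and 2310047M10Rik, at log2 changes from 1.54 to 1.71. The lower genes included Ptgds, prostaglandin D2 synthase (64.5 and 57.1 against 17.6 and 18.1, -1.76, adjusted p = 0.000635) and Mpv17 (-1.39, adjusted p = 0.0117). List members called higher were Cck of the peptides, Nrgn of the mature neuron genes, Fezf2 of the layer factors and Gabbr1 of 12 GABA receptor subunits. Yeats4 and Ube2d3 of 11 epigenetic regulators were also higher, as was 1 of 77 genes of oxidative phosphorylation, against 1.21% of all genes. Called lower were 1 of 3 oligodendrocyte markers and 1 of 2 genes that the study names for Tshz2 neurons between ages. Of the ion channel genes 0 of 36 were called, as were 0 of 16 glutamate receptor genes and 0 of 12 immediate early genes. With 1.25% of all genes called, lists of this size cannot be told apart from that share.

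The 80 higher genes, chosen by this contrast in Exc_21, differed between the same libraries in every other cell type examined. Their ratio of cocaine to saline libraries at 15 d was above 1 for 80 of 80 genes in the other Exc cells, 80 in inhibitory neurons, 78 in astrocytes and 77 in endothelial cells, and the median log2 ratio was 0.93 in Exc_21 and 0.81 to 0.85 in the other types. Their summed level in Exc_21 was 17425 and 16359 CPM in the cocaine and 7024 and 11069 in the saline libraries at 15 d, 6712 to 9274 in the other 8 P60 libraries, and 21373, 14353 and 13294 at P21. In astrocytes it was 13415 and 12788 in the cocaine and 5945 and 8921 in the saline libraries at 15 d. These 4 libraries had the same order in both types, with saline replicate 2 between saline replicate 1 and the cocaine libraries. Cck, a neuronal peptide, was at 909 and 494 CPM in astrocytes of the cocaine libraries at 15 d, 134 and 248 in those of the saline libraries at 15 d, and at 0 to 79.5 in the other P60 libraries. Relative to the other Exc cells of the same libraries, 0 of 12077 genes (0.0%) were called in Exc_21 at 15 d, with 369 at an unadjusted p under 0.05, and the values were 0.38 for Cck and 0.18 for Nrgn. The part of library preparation and of free RNA in the 15 d difference was not tested.

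**Figure D5:**
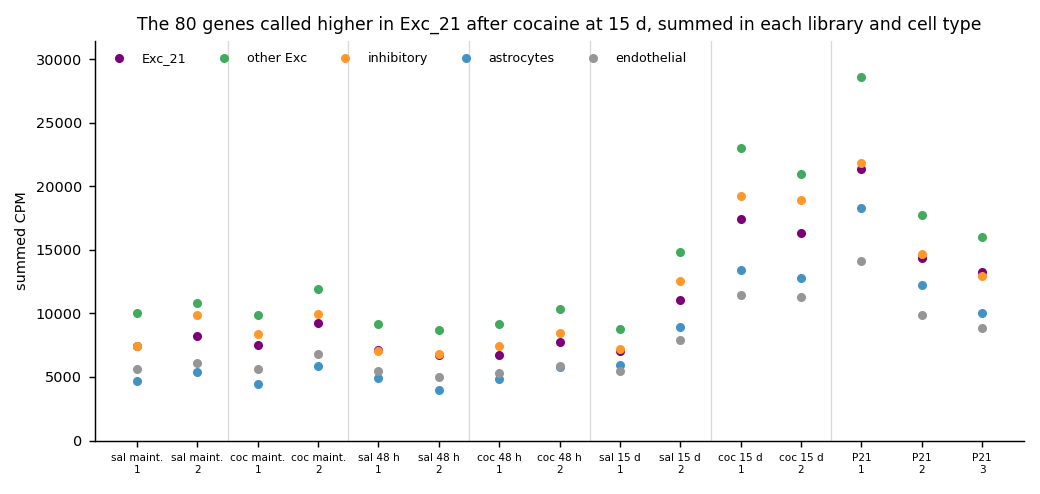
Summed CPM of the 80 genes called higher in Exc_21 after cocaine at 15 d, for each library (x axis, in order of treatment and time point) and cell type (colours). In each cell type the 2 cocaine libraries at 15 d, saline 15 d replicate 2 and the P21 libraries are above the remaining P60 libraries.

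Over all time points, 6 cocaine against 6 saline libraries, edgeR called 0 of 6631 genes, with 455 at an unadjusted p under 0.05, and DESeq2 called 1. Nrgn had an adjusted p of 0.00248 with a log2 change of 0.58 (SE 0.103), just under the fold required. By time point the Nrgn log2 changes were 0.33 at maintenance, 0.25 at 48 h and 1.18 at 15 d. Without saline 15 d replicate 2, the same comparison called 37 genes and the test between time points 46. Of all tested genes, 16 (0.241%) had 6 cocaine libraries that did not overlap the 6 saline libraries. The difference between Exc_21 and the other excitatory neurons in the cocaine change over all time points was called for 0 of 12077 genes, with 575 at an unadjusted p under 0.05, and DESeq2 called 0. Per time point it was called for 0 genes at each, with smallest adjusted p-values of 0.26 at maintenance and 0.122 at 48 h, and the difference did not overlap between treatments for 32.3%, 33.3% and 33.1% of genes at maintenance, 48 h and 15 d.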

How the data were processed

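The authors deposited UMI counts per gene and cell, made with Cell Ranger and Seurat 2.1.0 on mm9 per the labels, and an annotation of cell class, cluster and mitochondrial fraction for cells that had passed their filters on genes, mitochondrial share and doublets. Doublets were not called again. UMI counts were summed per library over Exc_21 cells, leaving out 13 mitochondrial and 143 ribosomal protein genes of 26145. Sums were tested with edgeR 4.0.16 (TMM, filterByExpr, robust quasi-likelihood test, R 4.3.3), with Benjamini-Hochberg adjusted p under 0.05 and a change above 1.5-fold. Interaction fits had a library term. The cocaine fit used all 12 P60 libraries with a mean per group. Shares and depths were compared by exact permutation tests. DESeq2 1.42.0, other scalings, filters and left-out libraries were alternatives. Scripts were tested on simulated data. The members and gene lists were chosen with earlier results of these data known. Genes named were list members, the 15 highest and 8 lowest by ratio to other clusters at 20 CPM or more, and up to 10 rises and 10 falls per comparison without overlap. Intervals from UMIs cover counting error only. Ribosomal and mitochondrial genes took no part in the CPM. Some genes within these rules are not reported here. Sequences were not used here.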

Additional observations from a re-analysis of the deposited data

Results flagged for a closer look

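In Exc_21, Mmp11 was at 94.96 CPM in saline maintenance replicate 1, far from the 17.4 to 38.6 of the other 5 saline P60 libraries, and this library held 10 members. 3110035E14Rik was at 45.2 in cocaine 15 d replicate 2 and at 0 to 11.1 in the other 5 cocaine P60 libraries. Of the 50 groups of libraries examined in this way, chance gives a gap of that size in about 1 in 20.

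The age change differed between Exc_21 and the other excitatory neurons for 20 genes, those with the largest interaction (log2, P60 minus P21, Exc_21 minus the others) among called genes without overlap. The positive values were 7.88 for Cdca8, 3.54 for Trh, 3.18 for the stargazin relative Cacng5, 3.02 for 3222401L13Rik, 2.56 for Zbtb20 (ENSMUSG00000022708), 2.15 for Rgs5, 2.15 for Lypd6b, 1.94 for Tubb2b, 1.73 for Rasgrp2 and 1.70 for Foxp2; Trh is also given with the age results. The negative values were -7.89 for Ptprm, -3.31 for Sftpc, -3.18 for Plxdc1, -2.86 for Cdkn1c, -2.80 for Gm13629, -2.26 for Ccdc88b, -2.19 for Ppp1r35, -2.08 for Gm17102, -1.94 for Cd44 and -1.89 for Incenp. Cdca8 had no UMI in Exc_21 in any P21 library and Ptprm none in any saline P60 library, so their fitted values depend on the prior count and are no bounds. Several of the others rest on a few CPM on either side: Cacng5 was at 18.5, 12.6 and 28.1 at P21 and 11.9 to 26.1 in the saline libraries in Exc_21, and at 1.08 to 2.43 and 0 to 0.412 in the other neurons. Ccdc88b was at 21.5, 20.5 and 31.4 and then 11.9 to 43.5 in Exc_21, and at 0.655 to 1.23 and 2.97 to 6.26 in the others. Tubb2b had the most UMIs of these genes apart from Trh, at 39, 45.8 and 47.9 and then 35.6 to 89.3 in Exc_21, with a fall from 50.8 to 97.2 down to 16.6 to 39.4 in the others, and it was also called against Exc_19 (2.18, adjusted p = 5.37e-14).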

How the results depend on the processing

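The 808 genes called between the ages were 506 with DESeq2, 372 with the saline libraries of 15 d alone and 101 of 1560 tested with equal numbers of cells per library, and 546 to 947 with a library left out (617 of the 808 called without P21 replicate 1). The 232 genes of the age interaction were 71 with DESeq2, 128 against Exc_19 and 144 to 234 with a library left out. The 83 genes at 15 d were 11 with DESeq2, 3 with equal cells, 0 relative to the other Exc cells (added after seeing the data) and 13 to 186 with a library left out: 13 without cocaine replicate 1, 31 without replicate 2, 25 without saline replicate 1 and 186 without saline replicate 2. The 1 gene at 48 h was 0 with DESeq2, with at least 30 cells per library, with equal cells and relative to the other Exc cells, 2 with no filter, and 0 to 2 with a library left out. The 0 genes over all time points were 1 with DESeq2, with DESeq2 size factors, with mitochondrial and ribosomal genes kept, with at least 30 cells and with equal cells, 7 with no filter and 0 to 37 with a library left out. The 0 genes between time points were 1 with DESeq2 and with equal cells, 5 with no filter and 0 to 46 with a library left out; maintenance gave 0 to 2 and the cocaine interaction 0 to 1. The cause of these shifts was not tested. The age difference in share was 0.77 to 1.70 percentage points and the cocaine difference -0.265 to 1.04 with a library left out, negative without cocaine maintenance replicate 2. The age difference in UMIs per cell was -2369 to -1011 with a library left out, with an exact permutation p of 0.0357 without P21 replicate 1 in place of 0.0833. The cocaine difference in UMIs per cell was -385 to 269, with 262, 124, 269, 224 and 131 as the values above 0. Of 198 alternatives, 137 kept direction and side of the threshold or stayed within 1.5-fold. Of the named genes, none reversed: 282 of 334 age settings, 251 of 297 interaction settings, 187 of 224 settings at 15 d and 14 of 19 for Chgb kept the call. No paired analysis was possible because replicate numbers in accession order do not pair libraries across groups.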

Other observations

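The peptide and dopamine receptor genes of Exc_21 add to its description at P60. Among 8 listed neuropeptide genes at 20 CPM or more in an Exc cluster, only Trh was highest in Exc_21, while Penk and Pdyn, the opioid peptide precursors, had a median of 0 over the 12 libraries and reached at most 12.9 and 4.63 CPM. The opioid receptor Oprm1 was at 0, 3.66 and 23.7 (lowest, median and highest), with a highest other cluster mean of 1.26 and its highest value in the library with 10 members, and Oprk1 was at 0 to 2.78. The dopamine receptor gene Drd1a was at 4.35, 16.4 and 24.95, rank 5 of the 26 clusters (Exc_12, 27.8), and Drd2 was listed at 0 in all 12 libraries. At P21, Drd1a lay between 14.4 and 23.7, within the P60 range. These levels rest on few UMIs per library.

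The transporter pattern seen at P60 was also present at P21. P21 cells had been given cluster names by their correlation with P60 clusters, so the P21 pattern is not independent of that step. With each cell thinned to 2000 UMIs, 11.4% of 360 P21 members had UMIs of both Slc17a7 and Slc17a6 and none of Slc17a8, 1.11% had all of the transporters and 39.2% had none. In 5525 thinned other Exc cells of the same libraries, the first pattern was found in 1.01%. Slc17a6 was found in 90 and Slc17a8 in 50 of the 360 thinned P21 members (13.9% for the latter), with 0.271% of 369 thinned astrocytes for each as a background. Without thinning, at unequal depths, the shares of P21 members were 33.1% for the first pattern, 12.8% for the second and 8.33% with no transporter, and the first was found in 6.30% and the second in 0.0543% of the other Exc cells.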
